A study of Drosophila melanogaster with 17 samples.

Results

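The small heat shock protein genes are the family of chaperones built around the alpha-crystallin domain. Rows of the glial expression table were taken where the FlyBase symbol was Hsp22, Hsp23, Hsp26, Hsp27, Hsp67Ba, Hsp67Bc or l(2)efl, which gave 7 of the 13479 genes listed. All 7 were above 0 in all 17 libraries, and none was lost to a filter on low values.

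TRAP-seq sequences RNA pulled down with a tagged ribosomal protein, so that mRNA bound to the ribosomes of chosen cells is read from a whole head. All flies carried repo-GAL4, a driver active in glia, and UAS-GFP::RpL10A, the tagged protein, and were young adults collected at lights-on. TBI flies had been struck on the head with a solenoid while awake (dCHI, Drosophila closed head injury), and sham flies received no strike. Each group had 3 libraries at 1, 3 and 7 days after injury, except for TBI on day 7 with 2, because its replicate 3 was removed by the authors. In the sample labels the days appear as 3, 6 and 10, and the days after injury used here come from the column headings of the study's supplementary tables. Each library came from a pool of heads. The labels call the flies female and the paper male. The paper calls the replicates biological. In the fits of days 1 and 3, p-values measure how the difference between TBI and sham varied over the replicate numbers. In the other fits they measure the spread between libraries of a group.

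Small heat shock proteins bind unfolding proteins without using ATP and hold them until chaperones of the Hsp70 class can refold them. In flies most are switched on by heat through the heat shock factor Hsf, and several also change with development and age. Hsp22 works in the mitochondrial matrix, Hsp23 and Hsp26 in the cytosol and Hsp27 mostly in the nucleus. Hsp67Bc acts with the co-chaperone starvin, encoded by stv, in the removal of misfolded proteins, and l(2)efl is a relative of mammalian alphaB-crystallin that is abundant in fly muscle.

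On day 1 after injury, Hsp26, Hsp27 and l(2)efl rose in TBI libraries. Hsp22 and Hsp23 were also higher in every TBI library than in every sham library, by several fold, but their adjusted p lay just above the threshold. Hsp67Ba and Hsp67Bc had nearly the same level in both groups. On days 3 and 7 no small heat shock gene passed, and single libraries stood far above the others of their group in Hsp26 and Hsp27. Abundances are given as TPM, which is scaled for transcript length and library total. The RNA was amplified before sequencing, and the effect of this on levels compared between genes was not tested.

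**Figure D1:**
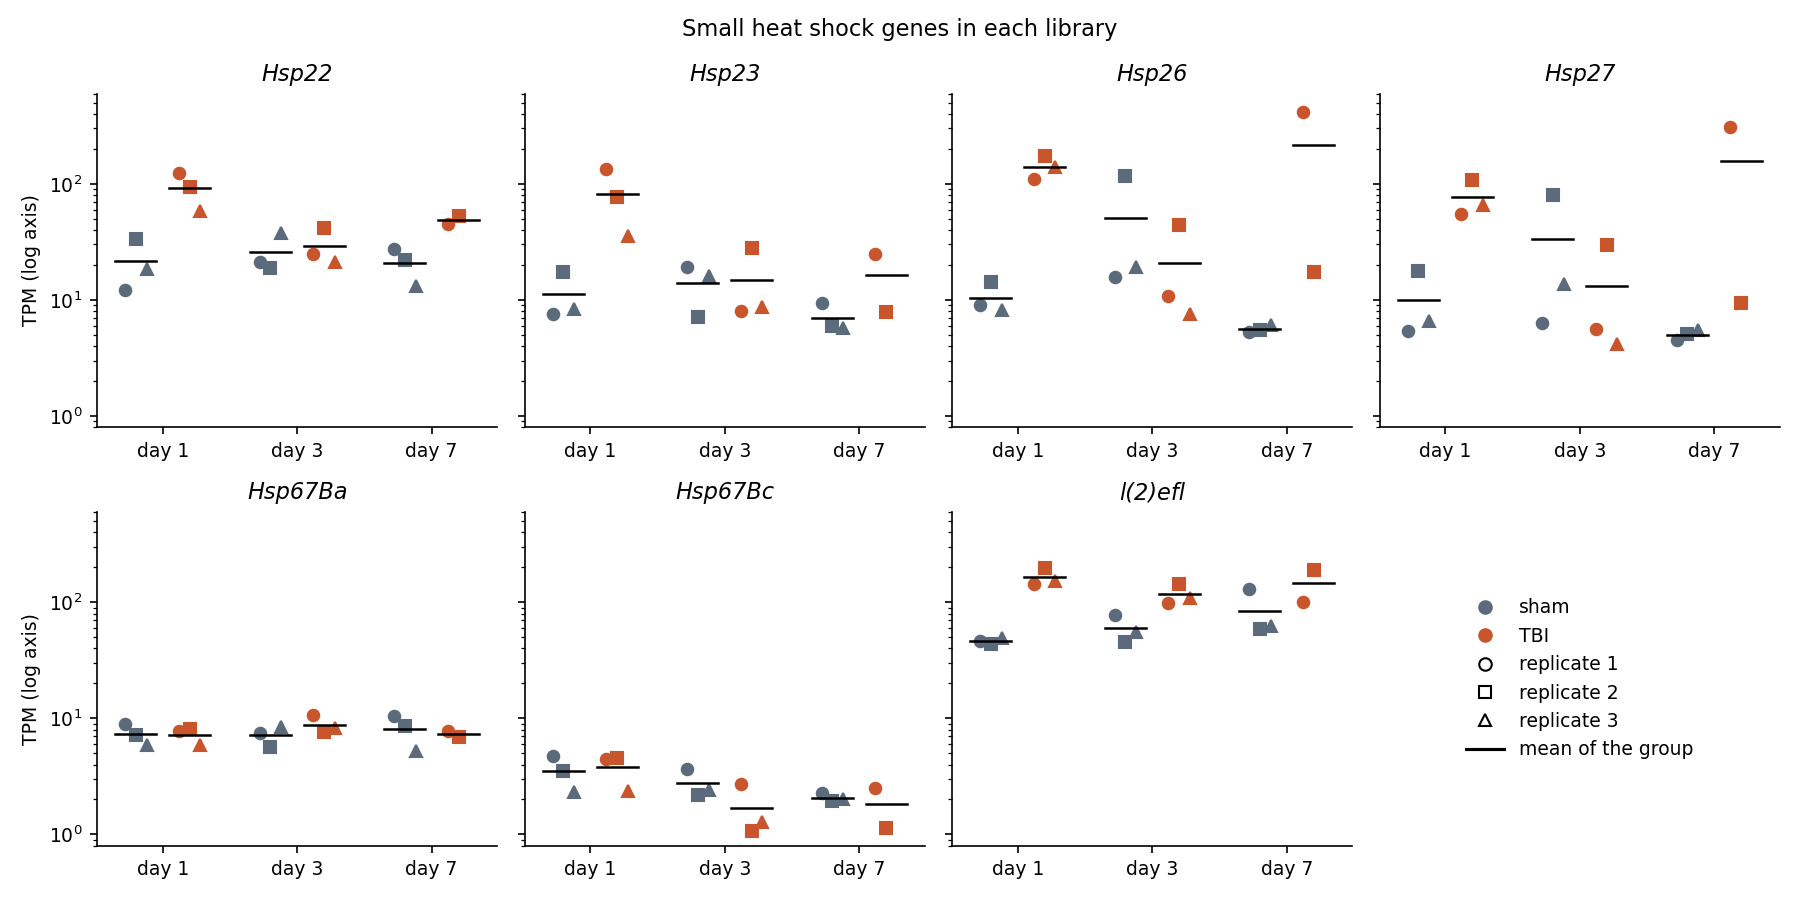
Level of each small heat shock gene in TPM (log axis) in the 17 libraries, sham in grey and TBI in orange, with the replicate number as the symbol and the group mean as a bar. On day 1 the TBI libraries lie above the sham libraries for Hsp22, Hsp23, Hsp26, Hsp27 and l(2)efl, while on days 3 and 7 a single library carries the highest Hsp26 and Hsp27 value, 117 TPM in sham replicate 2 of day 3 and 413 TPM in TBI replicate 1 of day 7.

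On day 1 the sham libraries held 8.98, 14.2 and 8.20 TPM of Hsp26, and TBI libraries held 110.0, 173 and 139 TPM. The groups did not overlap, and the mean went from 10.5 ± 3.28 TPM (SD, n = 3) to 141 ± 31.3 TPM (SD, n = 3). The log2 fold change, computed on TPM + 1 in limma, was 3.64 (SE 0.13, adjusted p = 0.0118). Hsp27, which lies in the same gene cluster, was at 5.44, 17.9 and 6.56 TPM in sham libraries and at 55.1, 109 and 65.9 TPM in TBI libraries. Every TBI value was above every sham value, with a log2 fold change of 2.93 (SE 0.17, adjusted p = 0.0226 in limma).

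The level of l(2)efl was 46.8, 43.5 and 49.7 TPM in sham libraries and 145, 198 and 151 TPM in TBI libraries. Sham libraries lay close together, and the mean rose from 46.7 ± 3.07 TPM to 165 ± 29.1 TPM (mean ± SD of 3 libraries each). Its log2 fold change was 1.78 (SE 0.15, adjusted p = 0.0338 in limma). In a pull-down from whole heads a change in the number of cells of a type and a change in the RNA per cell cannot be told apart, which holds for this and all further results.

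Hsp23 read 7.56, 17.5 and 8.40 TPM in sham libraries and 133, 77.3 and 35.3 TPM in TBI libraries. The TBI values were spread widely, at 4.20 to 17.6 times the sham library of the same replicate number. Its log2 fold change of 2.67 (SE 0.46) had an adjusted p of 0.110 in limma and did not pass. Hsp22, the mitochondrial member, read 12.1, 33.6 and 18.6 TPM in sham libraries and 123, 93.6 and 58.7 TPM in TBI libraries. Here too the groups did not overlap, with sham replicate 2 well above the other sham libraries. TBI values were 10.1, 2.79 and 3.15 times the sham library of the same replicate number. The log2 fold change of 2.10 (SE 0.41, adjusted p = 0.131 in limma) did not pass.

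Hsp67Ba ranged from 5.86 to 8.93 TPM in sham libraries and from 5.88 to 8.09 TPM in TBI libraries of day 1, with a log2 fold change of -0.01 and a 95% interval from -0.46 to 0.44. Hsp67Bc was the lowest member, at 2.34 to 4.75 TPM in sham libraries and 2.37 to 4.57 TPM in TBI libraries. Its log2 fold change was 0.08 with a 95% interval from -0.44 to 0.61. These intervals lie below the fold changes of the other 5 genes on that day, although a direct test between genes was not made.

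Of the 7 genes, 3 passed the thresholds on day 1 and all 3 were higher. To pass, a gene had to move by 0.6 or more on the log2 scale with an adjusted p (Benjamini-Hochberg) no larger than 0.1 in limma, which 2.86% of the 12085 genes tested did, and 2.19% passed as higher. Every TBI library was above every sham library for 5 of the 7 genes, against 10.1% of all genes tested. The median log2 fold change of the members was 2.10, and that of all genes tested was 0.02. The number of members called was 5 (Hsp22, Hsp23, Hsp26, Hsp27 and l(2)efl) without the replicate block. It was 0 without replicate 2, where 10 of all genes passed, compared with 346 in the main fit. Adjusted p in limma was then 0.137 for Hsp26 and Hsp27 and 0.180 for l(2)efl, while their log2 fold changes were 3.70, 3.13 and 1.60. The number of members was 5 without replicate 1 and 2 without replicate 3, where l(2)efl had an adjusted p of 0.109. These counts move with the number of all genes that pass at each setting.

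**Figure D2:**
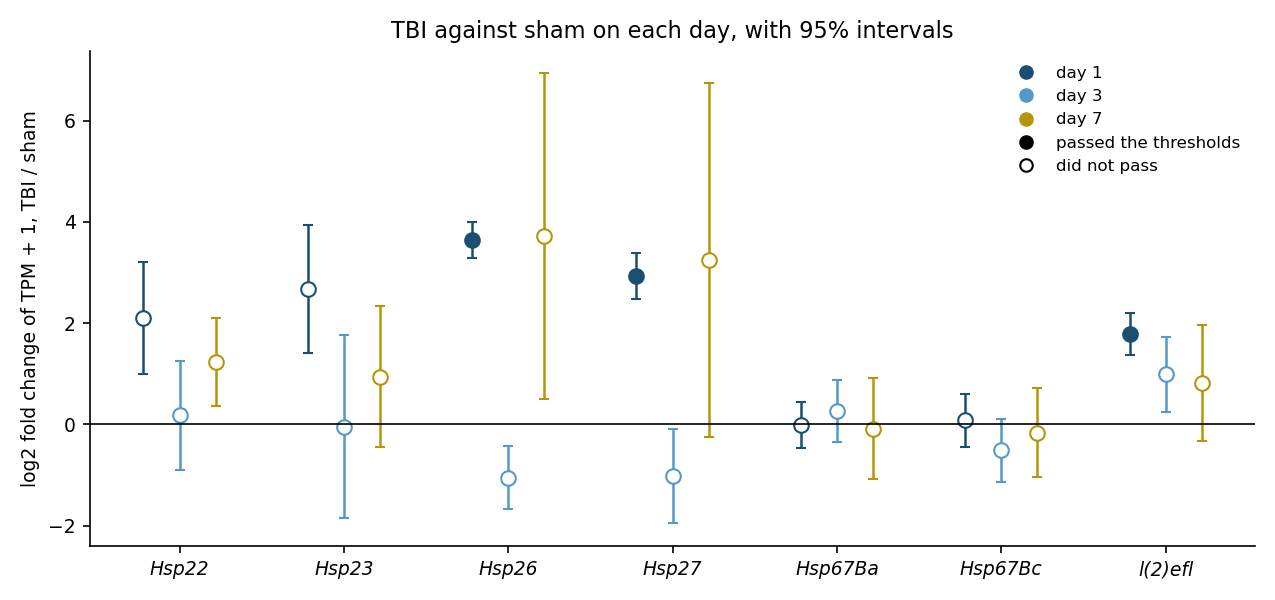
Log2 fold change of TPM + 1 between TBI and sham libraries for each small heat shock gene on days 1, 3 and 7, with 95% intervals from limma and filled points for genes past the thresholds. The 3 filled points are Hsp26, Hsp27 and l(2)efl on day 1, and the intervals of Hsp26 and Hsp27 on day 7 span several log2 units because the 2 TBI libraries of that day differ.

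Together the 7 genes summed to 111 ± 23.4 TPM (SD, n = 3) in sham libraries of day 1 and to 566 ± 103 TPM (SD, n = 3) in TBI libraries. The make-up of this sum differed as well. The share of l(2)efl lay between 31.7% and 49.8% of the sum in sham and between 25.0% and 33.0% in TBI libraries, so the ranges overlapped. Hsp26 made up 8.23% to 10.4% of it in sham and 19.0% to 30.4% in TBI libraries. On day 3 the sum was 194 ± 71.9 TPM in sham libraries and 207 ± 78.2 TPM in TBI libraries (mean ± SD of 3 libraries each), a difference within the spread of the replicates.

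On day 3, Hsp26 read 15.7, 117 and 19.2 TPM in sham libraries and 10.8, 43.9 and 7.50 TPM in TBI libraries. Replicate 2 was the highest library of both groups. In each replicate number TBI was below sham, with a log2 fold change of -1.05 (SE 0.23), but the adjusted p was 0.815 in limma. Hsp27 had the same order, with 6.31, 80.5 and 13.6 TPM in sham libraries and 5.65, 29.5 and 4.16 TPM in TBI libraries and a log2 fold change of -1.02 (SE 0.34, adjusted p = 0.815). With sham replicate 2 left out and no block, these log2 fold changes were -0.15 for Hsp26 and -0.03 for Hsp27.

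Day 3 values of l(2)efl were 77.5, 45.2 and 55.9 TPM in sham libraries and 99.4, 145 and 110.0 TPM in TBI libraries. TBI libraries were all above sham libraries, which 4.35% of the 11835 genes tested on that day also showed. The mean was 59.5 ± 16.5 TPM in sham libraries and 118 ± 23.8 TPM in TBI libraries (mean ± SD of 3 libraries each), and the log2 fold change of 0.99 (SE 0.27, adjusted p = 0.815 in limma) did not pass. Hsp22 at 18.8 to 37.5 TPM in sham libraries and 21.2 to 41.7 TPM in TBI libraries, and Hsp23 at 7.14 to 19.0 and 8.09 to 28.2 TPM, overlapped between groups. Hsp67Ba had a log2 fold change of 0.27 (SE 0.23) and Hsp67Bc of -0.51 (SE 0.23), neither passing.

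No member passed on day 3 in limma, as no gene did (0.0% of 11835). At an unadjusted p under 0.05 there were 3 members, l(2)efl higher and Hsp26 and Hsp27 lower, where 5.81% of all genes were under this limit. The same thresholds gave 0 of 7 members on day 7 (0.0% of 11966 genes), with Hsp22 and Hsp26 higher at an unadjusted p under 0.05, which 4.21% of all genes had.

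On day 7 the 2 TBI libraries disagreed on Hsp26 and Hsp27. Hsp26 was at 5.29, 5.49 and 6.02 TPM in sham libraries, and at 413 TPM in TBI replicate 1 and 17.3 TPM in TBI replicate 2. Both were above every sham library, as they were for 15.1% of the genes tested, and 413 TPM was the highest value of any member in any library. The log2 fold change of 3.72 had an SE of 1.28 and an adjusted p of 0.717 in limma. For Hsp27 the sham libraries read 4.48, 5.03 and 5.49 TPM and the TBI libraries 308 and 9.42 TPM, with a log2 fold change of 3.24 (SE 1.39, adjusted p = 0.717). Without TBI replicate 2 both genes passed, at log2 fold changes of 5.97 and 5.69, and 1375 of all genes did, but the group then held a single library whose spread was assumed to be that of the sham group. Without TBI replicate 1 the log2 fold change of Hsp26 was 1.47 and no member passed.

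Hsp22 on day 7 read 27.3, 22.0 and 13.2 TPM in sham libraries and 44.7 and 52.6 TPM in TBI libraries. Both TBI libraries were above every sham library, as they were for 15.1% of the genes tested, and the log2 fold change was 1.24 (SE 0.34, adjusted p = 0.717 in limma). Hsp23 read 9.43, 5.97 and 5.69 TPM in sham libraries and 24.8 and 7.87 TPM in TBI libraries, and l(2)efl 131, 58.6 and 63.1 TPM in sham libraries and 101 and 190 TPM in TBI libraries. Both overlapped. Across all genes the median log2 fold change of day 7 was 0.23, and it was 0.05 after median-of-ratios scaling. Relative to the median of 0.23, the log2 fold changes were 3.49 for Hsp26, 3.01 for Hsp27, 1.01 for Hsp22, 0.71 for Hsp23 and 0.58 for l(2)efl, and those of Hsp67Ba and Hsp67Bc were -0.31 and -0.40.

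The size of the TBI effect was next compared between days with an interaction term. For Hsp26 the effect of day 1 exceeded that of day 3 by 4.69 on the log2 scale (SE 0.28, adjusted p = 0.0245 in limma). It was 1 of 2 genes that passed among 12446 (0.0161%). For Hsp27 the difference was 3.95 (SE 0.41, adjusted p = 0.121), for Hsp23 2.71 (SE 0.93) and for Hsp22 1.92 (SE 0.65), none of them passing. The difference for l(2)efl was 0.79 with a 95% interval from -0.06 to 1.64. The Hsp26 call was lost without the replicate block (adjusted p = 0.134) and without any of the 3 replicate pairs (adjusted p from 0.139 to 0.459). It stood at 3.79 (adjusted p = 0.0739) without sham replicate 2 of day 3 and without the block.

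Between day 1 and day 7, 0 of 7 members differed in their TBI effect in limma, where 0.0400% of 12493 genes did, and 0 members had an unadjusted p under 0.05 against 3.80% of all genes. The difference was -0.08 for Hsp26, with a 95% interval from -3.06 to 2.89, and -0.31 for Hsp27, with an interval from -3.70 to 3.08, both intervals being several log2 units wide. After median-of-ratios scaling, which moved the median difference of all genes from -0.22 to -0.0037, they were 0.24 and 0.02. Without TBI replicate 1 of day 7 the Hsp26 difference became 2.17 (adjusted p = 0.0570), and without TBI replicate 2 it became -2.34 (adjusted p = 0.0328), but TBI on day 7 was then a single library whose spread was assumed to be that of the other groups. For Hsp23, Hsp22 and l(2)efl the differences were 1.72, 0.86 and 0.97 with SEs of 0.82, 0.60 and 0.48.

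In uninjured flies the genes were compared over the 9 sham libraries. No member passed between day 3 and day 1 or between day 7 and day 1 in limma, where 2 of 11939 genes passed in each (0.0168%). At an unadjusted p under 0.05 there was 1 member in each comparison, where 3.66% and 3.23% of all genes were under this limit. Hsp26 was higher on day 3 by 1.61 (SE 0.66), which became 0.72 without sham replicate 2 of day 3, and l(2)efl was higher on day 7 by 0.74 (SE 0.31). Averaged over all sham libraries, l(2)efl had the highest level at 63.5 TPM, above 89.3% of the genes listed, followed by Hsp22 at 22.7, Hsp26 at 22.3, Hsp27 at 16.2, Hsp23 at 10.8, Hsp67Ba at 7.54 and Hsp67Bc at 2.79 TPM. The Hsp26 and Hsp27 means depend on sham replicate 2 of day 3, and their medians were 8.98 and 6.31 TPM.

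Ordered by group mean, TBI on day 1 was the highest group for Hsp22, Hsp23 and l(2)efl. For Hsp22 it lay clear of TBI on day 7 (91.8 ± 32.2 against 48.6 ± 5.63 TPM), which lay clear of TBI on day 3, and the other groups overlapped with their neighbours. For Hsp23 TBI on day 1 lay clear of the other 5 groups, which overlapped with each other in order. For l(2)efl all neighbouring groups in the order overlapped. For Hsp26 and Hsp27, TBI on day 7 had the highest mean and overlapped with TBI on day 1, and sham on day 7 was the lowest group, lying clear of sham on day 1 for Hsp26. Hsp67Ba varied by 2.06 times over all 17 libraries and Hsp67Bc by 4.39 times, compared with 78.2 times for Hsp26 and 74.0 times for Hsp27.

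Hsp26 and Hsp27 followed each other closely. Across the 17 libraries, which share the groups and the composition of the libraries, Pearson's r of log2(TPM + 1) was 0.98 for this pair and 0.87 for Hsp22 with Hsp23, while Hsp26 with l(2)efl had 0.39 and Hsp26 with Hsp67Ba -0.24. The ratio of Hsp26 to Hsp27 stayed between 0.795 and 2.48 in single libraries, with a median of 1.49, while Hsp26 itself varied by 78.2 times and Hsp27 by 74.0 times. Sham replicate 2 of day 3 separated the pairs. Hsp26 and Hsp27 were high there, while Hsp22 at 18.8 TPM and Hsp23 at 7.14 TPM were the lowest sham values of the day.

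The libraries with the highest Hsp26 and Hsp27 were those with RNA of midgut digestive enzymes. The summed level of 32 trypsin, Jonah protease and related genes was 555 to 1032 TPM in 5 libraries and 36.6 to 67.2 TPM in the other 12. On day 1, 15 of the 29 genes tested passed as higher, compared with 2.19% of all genes. The 5 libraries were the TBI libraries of day 1, sham replicate 2 of day 3 and TBI replicate 1 of day 7. In them 5 to 8 of the 32 genes were at 0, compared with 14 to 25 in the other 12, and alphaTry, an abundant trypsin, had 229 to 481 TPM where it was otherwise at most 1.67 TPM. Hsp26 was at 110.0 to 413 TPM in these 5 and at 5.29 to 43.9 TPM in the others, and Hsp27 at 55.1 to 308 and 4.16 to 29.5 TPM. The ranges of Hsp22 (18.8 to 123 and 12.1 to 52.6 TPM), Hsp23 (7.14 to 133 and 5.69 to 28.2 TPM) and l(2)efl (45.2 to 198 and 43.5 to 190 TPM) overlapped between these 5 and the other 12. The part of this RNA in the changes of Hsp26 and Hsp27 was not tested, and on day 1, where all TBI libraries and no sham library had the high level, it cannot be told apart from the injury.

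**Figure D3:**
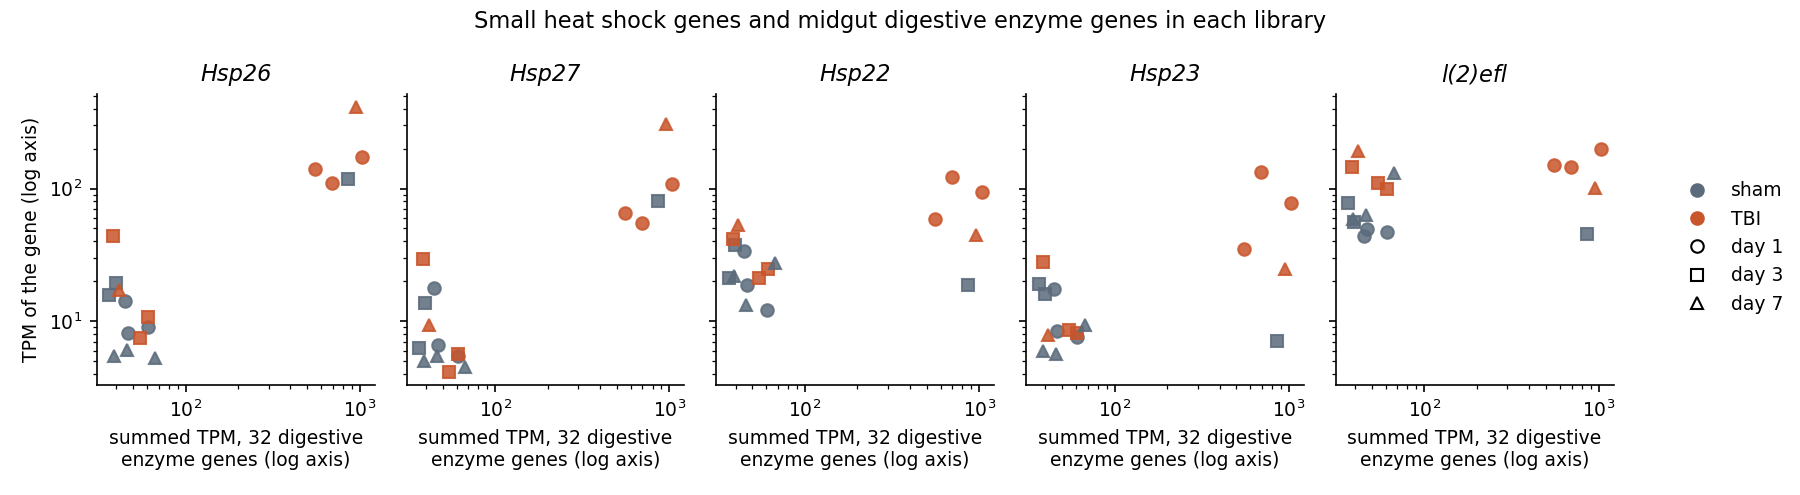
Level of Hsp26, Hsp27, Hsp22, Hsp23 and l(2)efl in TPM against the summed TPM of 32 midgut digestive enzyme genes, both on log axes, with 1 point per library coloured by group and shaped by day. Hsp26 and Hsp27 are highest in the 5 libraries at 555 TPM or more on the horizontal axis, while sham replicate 2 of day 3, among these 5, is low for Hsp22 (18.8 TPM), Hsp23 (7.14 TPM) and l(2)efl (45.2 TPM).

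Muscle genes were followed as well, since l(2)efl is abundant in muscle. Their summed level, over 9 genes, was 1335 to 1460 TPM in sham libraries and 1549 to 2227 TPM in TBI libraries on day 1, 1191 to 1606 and 1638 to 1882 TPM on day 3, and 1156 to 1288 and 1445 to 2501 TPM on day 7. All 9 genes had a log2 fold change above 0 on each day and none passed, and their median on day 1 was 0.26, compared with 1.78 for l(2)efl. The 9 log2 fold changes of day 1 ran from 0.04 to 0.68. Mp20, a muscle gene outside this list, is named below because its profile was the closest to l(2)efl. It was at 71.1, 98.1 and 115 TPM in sham and 234, 389 and 280 TPM in TBI libraries of day 1. The part of muscle RNA in the l(2)efl result was not tested. Of 12 glial markers 4 passed as lower on day 1, as 0.670% of all genes did, and none as higher, their sum being 4804 to 6800 TPM in sham libraries and 3500 to 4845 TPM in TBI libraries. The glial factor repo was above 0 in all libraries, at 31.1 to 92.7 TPM, while photoreceptor genes such as the opsin ninaE were abundant too, their list summing to 26886 to 61008 TPM, so the pull-down also held RNA of other head cells. On day 1 the photoreceptor sum was 46644 to 48166 TPM in sham libraries and 26886 to 35333 TPM in TBI libraries. All 12 genes tested had a log2 fold change below 0 and none passed. Their median was -0.49, compared with 0.02 over all genes tested. The sum of 8 neuronal markers did not overlap either (982 to 1266 against 760 to 929 TPM). Nor did that of 8 yolk and ovary genes (12851 to 21701 against 5319 to 12211 TPM), and no gene of these lists passed. The latter sum came mainly from Yp1 (9519 to 15984 against 3531 to 8839 TPM) and Yp3 (3332 to 5914 against 1779 to 3372 TPM). Of the 7 yolk and ovary genes tested, 4 had a log2 fold change above 0, with a median of 0.08. The ovary gene osk was at 0 in sham libraries and at 0, 7.79 and 2.73 TPM in TBI libraries. Elsewhere osk was above 0 only in sham replicate 2 of day 3 (3.94 TPM) and TBI replicate 1 of day 7 (36.2 TPM). The part of these shifts in the results of day 1 was not tested.

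In release 6 coordinates, 6 of the 7 genes lie within 14.2 kb of chromosome arm 3L, from 9371511 to 9385694, and l(2)efl lies on 2R from 23684651 to 23685543. Along 3L the order is Hsp67Bc (9371511 to 9372497), Hsp22 (9372931 to 9374964), Hsp26 (9376418 to 9377427), Hsp67Ba (9377802 to 9379534), Hsp23 (9381882 to 9382765) and Hsp27 (9384063 to 9385694). Hsp67Ba, which had a log2 fold change near 0, thus sits between Hsp26 and Hsp23. Within the cluster and 20 kb on either side there were 14 other genes in the table, with a median log2 fold change of -0.02 on day 1. CG4461, a further alpha-crystallin gene located between Hsp22 and Hsp26, was at 26.2 to 50.0 TPM in sham libraries and 30.0 to 44.3 TPM in TBI libraries of day 1, and its log2 fold change was -0.17 (SE 0.19).

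**Figure D4:**
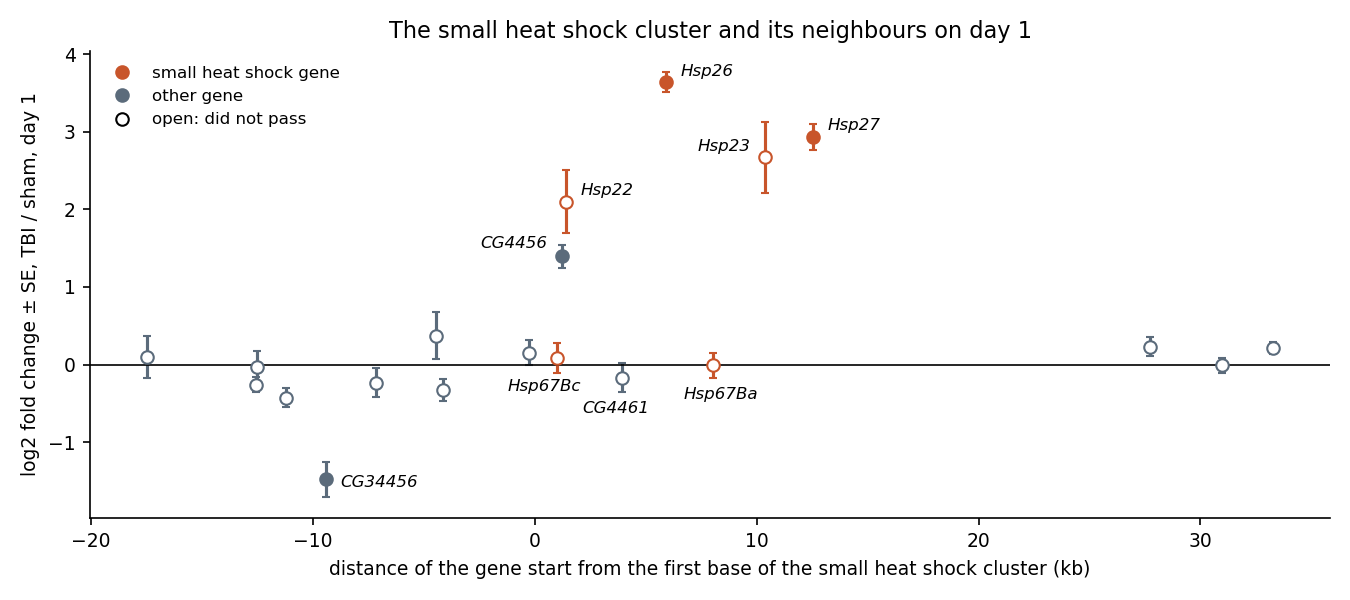
Log2 fold change with its SE between TBI and sham libraries of day 1, plotted against the distance in kb of each gene's start from the first base of the small heat shock cluster, with small heat shock genes in orange, other genes in grey and filled points for genes past the thresholds. Genes with a log2 fold change above 1 (Hsp22, Hsp26, Hsp23, Hsp27 and CG4456) are interspersed with Hsp67Bc, CG4461 and Hsp67Ba, which lie near 0.

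Of these 14 neighbours 1 passed as higher and 1 as lower on day 1, where 2.19% and 0.670% of all genes tested did. The higher gene was CG4456, at 0, 0.478 and 0 TPM in sham libraries and 2.02, 2.67 and 1.42 TPM in TBI libraries. Its annotation covers all 1900 exonic bases of Hsp22 on the same strand, so that reads of CG4456 and Hsp22 cannot be separated with certainty and both values are uncertain. The lower gene was CG34456, which fell from 22.1, 16.8 and 13.4 TPM to 7.52, 3.63 and 6.03 TPM, with a log2 fold change of -1.48 (SE 0.23, adjusted p = 0.0923 in limma). Neither gene passed with any replicate pair left out, with adjusted p from 0.134 to 0.288 for CG4456 and from 0.162 to 0.322 for CG34456. The antisense RNA asRNA:CR43481 overlaps 75.9% of the exonic bases of Hsp67Ba, and without strand information its reads cannot be told apart from those of the gene.

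Of the 5 other alpha-crystallin genes, 4 were tested and none passed on any day, and CG43851 was listed at 0 throughout. CG14207 came closest on day 1, with 14.1, 1.10 and 3.55 TPM in sham libraries and 70.1, 76.5 and 32.9 TPM in TBI libraries. The groups did not overlap, and the log2 fold change was 3.44 (SE 0.64, adjusted p = 0.121 in limma). It passed in 3 of 9 alternatives, with adjusted p from 0.0208 to 0.245 over all of them. CG7409, the most abundant of the 4, was at 95.9 to 135 TPM in sham libraries and 61.9 to 129 TPM in TBI libraries. CG4461 and CG13133 had their highest values in TBI replicate 2 of day 7, at 139 and 10.9 TPM.

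Heat shock factor and the chaperones that work with small heat shock proteins were examined as a list of 28 genes. On day 1, 24 of them were tested and 1 passed as higher, compared with 2.19% of all genes tested. This was Hsp68, a stress-induced chaperone of the Hsp70 class, which went from 2.47, 2.40 and 2.31 TPM in sham to 28.7, 23.02 and 13.1 TPM in TBI libraries. The sham libraries were nearly equal, no TBI library overlapped them, and the log2 fold change was 2.67 (SE 0.26, adjusted p = 0.0406 in limma). It did not pass without replicate 1 (adjusted p = 0.101) or without replicate 2 (adjusted p = 0.280). On day 3 Hsp68 stood at 1.09 to 5.81 TPM in sham libraries and 3.25 to 15.4 TPM in TBI libraries, and on day 7 at 1.31 to 1.97 and 4.47 to 5.91 TPM. In sham replicate 2 of day 3 it was at 1.09 TPM, the lowest of all libraries.

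The stress-induced Hsp70 genes are near-identical copies between which reads cannot be divided with certainty, so they were summed. The 6 copies summed to 12.7, 22.8 and 11.0 TPM in sham libraries and to 149, 94.7 and 31.9 TPM in TBI libraries of day 1. TBI libraries were all higher, with a spread wider than that of Hsp26. None of the 5 copies tested passed singly, their log2 fold changes running from 1.04 for Hsp70Bb to 3.08 for Hsp70Ab (adjusted p = 0.102 in limma), with Hsp70Aa at 1.99, Hsp70Bbb at 2.47 and Hsp70Bc at 1.51, and Hsp70Ba was listed at 0 in all libraries. On day 3 the sum was 15.7 ± 5.23 TPM in sham libraries and 26.8 ± 12.3 TPM in TBI libraries (mean ± SD of 3 libraries each). On day 7 it was 12.7 ± 6.54 TPM (SD, n = 3) and 23.4 ± 6.64 TPM (SD, n = 2).

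Hsf itself was at 18.5, 18.1 and 17.6 TPM in sham libraries and at 22.0, 18.1 and 15.0 TPM in TBI libraries of day 1, with a log2 fold change of 0.01 (SE 0.14). Hsp83, the fly Hsp90, was at 264, 209 and 182 TPM in sham libraries and 364, 335 and 228 TPM in TBI libraries, with a log2 fold change of 0.49 (SE 0.10, adjusted p = 0.141 in limma). DnaJ-1, a co-chaperone of the Hsp40 class, had a log2 fold change of -0.10 (SE 0.11) and stv, the partner of Hsp67Bc, of 0.10 (SE 0.12). The medians of the list on days 1, 3 and 7 were 0.34, 0.01 and 0.38 on the log2 scale, compared with 0.02, 0.03 and 0.23 over all genes tested. The list had no member past the thresholds on day 3 or day 7 in limma, with 3 of 23 and 1 of 24 genes at an unadjusted p under 0.05, compared with 5.81% and 4.21% of all genes.

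**Figure D5:**
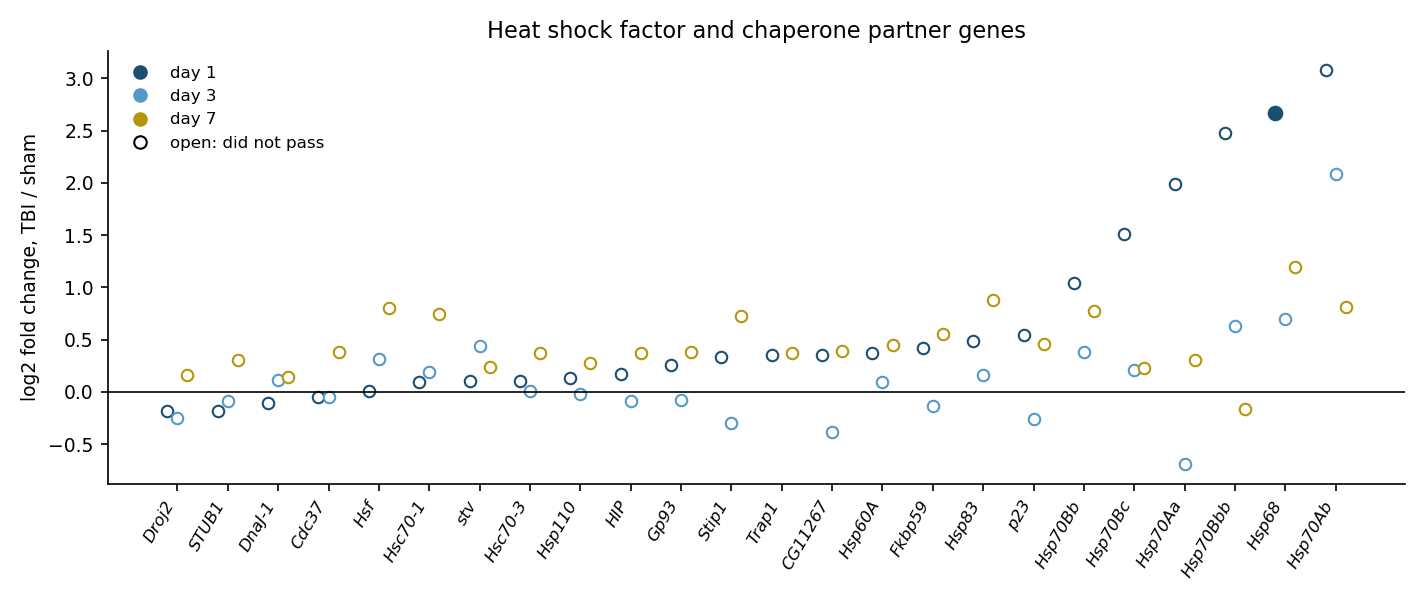
Log2 fold change between TBI and sham libraries on days 1, 3 and 7 for the heat shock factor and chaperone partner genes that were tested, ordered by their value on day 1, with a filled point for the gene past the thresholds. The stress-induced genes Hsp68 (2.67) and Hsp70 (1.04 to 3.08) lie at the right, and Hsf (0.01), DnaJ-1 (-0.10) and stv (0.10) lie near 0 on day 1.

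Genes whose profile was most like that of the members were found among 5315 genes with a mean of at least 10 TPM. Over the 17 libraries, the mean profile of the 7 members was closest to Act5C (Pearson's r = 0.93), Arp3 (0.91), spz (0.91), CG12112 (0.89) and Act42A (0.89). Act5C and Act42A encode cytoplasmic actins, Arp3 a subunit of the actin-nucleating Arp2/3 complex and spz the ligand of the Toll receptor. Act5C was at 465, 471 and 428 TPM in sham libraries and 1191, 1204 and 1119 TPM in TBI libraries of day 1. For Hsp26 alone the closest were CG6073 (0.93), the midgut protease Jon65Aiv (0.92) and CCT7 (0.91), a subunit of the cytosolic chaperonin. Jon65Aiv is 1 of the 32 digestive enzyme genes that set 5 libraries apart above. It was at 58.1 to 104 TPM in those 5 and at most 0.476 TPM elsewhere. Its mean passed 10 TPM only through those libraries, so its likeness to Hsp26 repeats that split. For l(2)efl they were the muscle protein Mp20 (0.95), Neurochondrin (0.91) and alphaTub84B (0.88). These correlations describe libraries that share the injury groups and carry no test.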

How the data were processed

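Reads from 17 glial TRAP-seq libraries were quantified by the authors with Kallisto against FlyBase release 6 transcripts and summed to genes with tximport. The deposited values are TPM, which keep no read depth, so no counting error is given. The paper states single-end reads and does not name the strand. The table lists 13479 genes, and 97.4% of their identifiers were matched to a symbol. The listed genes sum to 832800 to 854953 TPM per library. No 2 libraries were identical.

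The study tested estimated counts with a count model, and since the table holds TPM, log2(TPM + 1) was fitted here with limma 3.58.1 under R 4.3.3, with a variance trend, over all genes above 0 in at least 1 library of the fit. The replicate number was a block on days 1 and 3 and in their interaction, and was left out of the fits with day 7 and of the sham comparisons. P-values were two-sided and adjusted over all genes tested. Fold changes of genes near 0 are understated by the added 1 TPM. The fits were tested on simulated data with 200 changed genes and no replicate effect. The changed genes had a mean of at least 10 TPM and were shifted by 2 or 3 log2 units in either direction. The fits recovered 70.5% to 97.0% of the changed genes, and 4.94% to 11.9% of the calls were unchanged genes. Smaller shifts and genes at lower levels were not simulated, so the share recovered among them is not known. Alternatives covered the block, 2 scalings, a pseudocount of 0.1, a minimum mean of 1 TPM, left-out libraries and a joint fit.

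Members, gene lists and tests were chosen with earlier results of these data known. Named were all members, Hsf, Hsp83, Hsp68, the Hsp70 genes, DnaJ-1 and stv, other alpha-crystallin, chaperone and neighbouring genes past the thresholds, the 5 genes most like the mean z-scored profile and the 3 most like Hsp26 and l(2)efl. Cell type marker lists are given by counts and sums. CG14207, CG4461, CG7409, CG13133, alphaTry, repo, ninaE, Yp1, Yp3 and osk were named after their values were seen. Coordinates are from the Ensembl release 6 annotation, counted from 1. Hsc70-4, lncRNA:Hsromega, Rh6, wupA, FASN1 and vas were not analysed here. Figures were drawn with matplotlib 3.10.9.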

Additional observations from a re-analysis of the deposited data

Results flagged for a closer look

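Hsp26 differed in its TBI effect between days by a test of the difference, as the effect of day 1 exceeded that of day 3 by 4.69 on the log2 scale (adjusted p = 0.0245, limma interaction). The call was lost in 4 of 9 alternatives, which were no replicate block and each replicate pair left out.

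Hsp26 and Hsp27 were lower in TBI than in sham libraries of the same replicate number in 3 of 3 pairs on day 3. The share of all genes with this order was not counted. On day 7 they were higher than every sham library in both TBI libraries, as 15.1% of all genes tested were. The log2 fold change of day 3 minus that of day 7 was -4.77 for Hsp26 and -4.26 for Hsp27, a difference that was not tested. TBI replicate 1 of day 7 carried 413 TPM of Hsp26 and 956 TPM of midgut digestive enzyme genes, and sham replicate 2 of day 3 carried 117 and 860 TPM, and the part of the latter RNA in the pattern was not tested. Groups held 2 or 3 libraries, too few for a test of single outlying libraries.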

How the results depend on the processing

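Every member that passed on day 1 kept its direction in all 9 alternatives. Hsp27 lost its call in the joint fit of all libraries (adjusted p = 0.278), and Hsp22 and Hsp23, which had not passed, passed in 4 and 5 of the 9. On day 1 the count of members called was 5 without the replicate block and 0 to 5 with a replicate left out. It was also 5 with a minimum mean of 1 TPM, where 684 of all genes passed. Between day 1 and day 3 it was 0 without the block, 2 with either scaling or a minimum of 1 TPM, and 0 without any replicate pair. With a library left out it was 0 to 2 on day 7 and 0 to 1 between day 1 and day 7. Genes called among all genes ran from 10 (without replicate 2) to 684 (minimum mean of 1 TPM) around 346 on day 1. They ran from 0 to 3 on day 3 and from 0 to 167 between days 1 and 3. On day 7 and between days 1 and 7 the lowest count was 0. The highest there came from the fit that kept 1 TBI library of day 7.

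Log2 values that changed sign were those of genes and days where nothing had passed. On day 1, Hsp67Ba was 0.021 after median-of-ratios scaling and ran from -0.092 to 0.077 with a replicate left out, and Hsp67Bc ran from -0.028 to 0.16. On day 3, Hsp22 was -0.0100 without sham replicate 2 and the block and ran from -0.29 to 0.66 with a replicate left out, and Hsp23 ran from -0.98 to 0.51. With a library left out on day 7, Hsp67Ba ran from -0.33 to 0.10 and Hsp67Bc from -0.53 to 0.19. Between day 1 and day 7, Hsp26 was 0.24 after median-of-ratios and 0.22 after upper-quartile scaling and Hsp27 was 0.016 after median-of-ratios scaling, and with a library left out they ran from -2.34 to 2.17 and from -2.75 to 2.14. The cause of these changes was not tested.

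Same-numbered libraries correlated in their deviations from group means with r from 0.00423 to 0.376 on day 1, from -0.0291 to 0.451 on day 3 and from 0.124 to 0.224 on day 7, so the numbers do not mark pairs in every case and the block rests on the study's methods. TPM carries no depth, so a limit of detection is not given.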
